A study of Homo sapiens with 14 samples.

Results

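ABC transporters are membrane proteins that use ATP to move lipids, drugs and drug conjugates out of cells or into organelles. The 10 genes described here were chosen by symbol, out of 60683 gene identifiers in each count table: ABCA1, ABCB1, ABCB6, ABCC1, ABCC2, ABCC3, ABCC4, ABCC5, ABCG1 and ABCG2. They were measured by poly(A) RNA sequencing in A549, a lung cancer line, and SUM159, a triple negative breast cancer line, in 14 libraries of 7 groups. A549 cells were left untreated, or received 2 µM palbociclib (a CDK4/6 inhibitor), 0.5 µM indisulam (a sulfonamide described as an indirect CDK2 inhibitor) or both drugs over 10 days, or 0.5 µM PF-06873600 (a CDK2/4/6 inhibitor) over 7 days. SUM159 cells were left untreated or received 0.5 µM PF-06873600 over 7 days. The paper also reports that indisulam led to degradation of the splicing factor RBM39 and to more splicing errors. The part of these in the transporter results was not tested. The study asked whether joint inhibition of these kinases gives senescent cancer cells, and the comparisons here ask how transporter RNA differed in the same cells. When the untreated cells were collected is not given in the sources used here. The lines were grown in different media, RPMI for A549 and DMEM/F12 with insulin and hydrocortisone for SUM159, so line and medium cannot be told apart. Each group had 2 libraries, called technical duplicates by the submitters. The p-values below therefore measure the spread between these libraries and not between independent experiments. Each model shared its estimate of the spread among all its groups. The mean squared difference between replicates, relative to counting error, was 9.57 in untreated A549 and 9.05 in untreated SUM159. It was 1.61 to 5.04 in the other groups, so the spread of the untreated libraries may be understated in comparisons with them.

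Each library held between 13060374 and 21149256 counts on genes. At this depth 3 counts, the floor used here, equal 0.142 to 0.230 CPM, the unit in which a library's counts on genes are scaled to the same total. In A549 the epithelial genes KRT7, KRT8 and KRT18 were high, whereas the lung lineage genes NKX2-1, SFTPB and SFTPC were each at or below 3 counts in both untreated libraries. SUM159 held VIM and CD44, but these do not set it apart, as VIM, CD44 and ERBB2 were also found in A549. By the test given below, 5 of 6 breast line markers were higher in untreated SUM159 than in untreated A549 and 1 was lower. Of 6 lung epithelial markers tested, 1 was higher there and 5 were lower, where 78.7% of all genes differed. Of the 8 triple negative breast line markers listed, PGR alone was at or below 3 counts in both untreated SUM159 libraries. The other receptor genes on that list, ESR1 and ERBB2, were above 3 counts in at least 1 of them. The summed level of 8 markers of immune, endothelial and stromal cells rose from 3.47 to 3.93 CPM in untreated A549 to 75.2 to 76.4 CPM in the combination, with COL1A1 alone at 73.6 CPM and PTPRC, CD3E and PECAM1 at or below 3 counts. In SUM159 the same sum was 1713 to 1812 CPM untreated and 4302 to 4479 CPM with PF-06873600, most of it COL1A1. In untreated SUM159 CD3E, CD68 and VWF were at or below 3 counts, and with PF-06873600 CD3E alone was. By the test given below, 5 of the 5 markers tested were higher with PF-06873600 in SUM159, where 38.1% of all genes were higher. The part of these genes in the transporter results was not tested. In bulk RNA, fewer cells with a transcript and less of it per cell cannot be told apart.

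Textbook roles give an order to the family. ABCA1 passes cholesterol and phospholipid to lipid-poor apolipoproteins and ABCG1 passes cholesterol to HDL particles. Both are known target genes of the LXR nuclear receptors, which respond to oxysterols. ABCB1 (P-glycoprotein, MDR1) and ABCG2 (BCRP) are broad drug efflux pumps, known for multidrug resistance of tumours and for the barrier of gut, brain and placenta. The ABCC proteins export organic anions. ABCC1 (MRP1), ABCC2 (MRP2) and ABCC3 (MRP3) carry glutathione and glucuronide conjugates, while ABCC4 (MRP4) and ABCC5 (MRP5) are known for cyclic nucleotides and nucleotide analogues. ABCB6 is a porphyrin transporter.

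In GENCODE release 44 on hg38, the genes lie on 10 chromosomes. ABCA1 (ENSG00000165029) is at chr9:104781006-104928155 on the minus strand, ABCB1 (ENSG00000085563) at chr7:87503017-87713323 on the minus strand, ABCC3 (ENSG00000108846) at chr17:50634777-50692253 on the plus strand and ABCG2 (ENSG00000118777) at chr4:88090150-88231628 on the minus strand. Reads were counted over exons of whole genes, so no single isoform or start site was resolved. ABCB1 overlaps RUNDC3B on the other strand, which held 28 counts over all 14 libraries. ABCC5 overlaps ABCC5-AS1 on the other strand, and ABCA1 overlaps ENSG00000226334 there, which held 16 counts. On its own strand ABCB6 overlaps ENSG00000284820, which held 51 counts, against 878 for ABCB6. ABCG1 and ABCG2 also overlap genes on their own strand, with at most 1 count each. Ambiguous reads were left out, and whether this lowered the ABCB6 level was not tested. Whether strand was used in counting is not given in the sources used here.

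RefSeq promoter entries (GRCh38.p14) were at hand for 7 of the 10 genes. There was none for ABCC1, ABCC3 and ABCG1, which were therefore not searched. The 3 windows below are shown because ABCA1, ABCB1 and ABCC5 are those with an entry that were higher by the test in A549 cells given both drugs. Each holds the 250 bases before an annotated start, 5′ to 3′ on the strand of the gene. Capitals mark matches on either strand to 6 motifs. The GC box was spelled GGGCGG and the CCAAT box by the letters of its name. For the E box the letters CACGTG were searched, and for the TATA box the letters TATAAA. The core of an antioxidant response element was written TGACNNNGC. A direct repeat of nuclear receptor half-sites spaced by 4 bases was searched by a loose pattern. Each half-site was read as any base, G, G or T, T, C or T, and A. The windows are chr9:104928156-104928405 for ABCA1, chr7:87600885-87601134 for the downstream start of ABCB1 and chr3:184017885-184018134 for ABCC5, all on the minus strand.
ABCA1: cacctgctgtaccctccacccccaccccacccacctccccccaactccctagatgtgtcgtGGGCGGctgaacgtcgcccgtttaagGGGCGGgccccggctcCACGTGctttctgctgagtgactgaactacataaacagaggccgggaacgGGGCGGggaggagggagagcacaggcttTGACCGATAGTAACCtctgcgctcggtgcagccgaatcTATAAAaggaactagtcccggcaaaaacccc
ABCB1: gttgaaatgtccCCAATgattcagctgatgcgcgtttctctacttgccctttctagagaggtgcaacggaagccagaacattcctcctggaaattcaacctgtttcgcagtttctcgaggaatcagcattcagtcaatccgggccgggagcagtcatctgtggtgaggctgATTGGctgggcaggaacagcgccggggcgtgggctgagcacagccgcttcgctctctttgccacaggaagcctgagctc
ABCC5: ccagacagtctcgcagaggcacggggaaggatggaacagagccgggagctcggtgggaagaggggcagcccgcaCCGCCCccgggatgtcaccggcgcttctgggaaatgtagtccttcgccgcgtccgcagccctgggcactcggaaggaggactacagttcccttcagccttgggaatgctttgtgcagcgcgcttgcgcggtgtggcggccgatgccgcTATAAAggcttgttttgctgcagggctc

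The ABCA1 window held 3 GC boxes, 1 E box, 1 TATA box and 1 match to the direct repeat, a type of site that LXR receptors bind. A match to this loose pattern was found in 0.413% of the 35116 promoter windows of this length. A GC box was found in 42.6%, an E box in 6.34% and a TATA box in 10.7%. ABCA1 was known as an LXR target before the search, so its match is a description and not a test. The downstream window of ABCB1 held 2 CCAAT boxes, a motif in 32.0% of windows, and no match to the other motifs. None of the 6 motifs matched in the window of its upstream start. In ABCC5 there was 1 GC box and 1 TATA box. The antioxidant core, found in 10.9% of windows, matched in ABCB6, where it overlapped an E box, and in ABCC4. These are matches of letters and not measured binding.

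Levels of different genes can be compared only per length, as CPM per kb of annotated exon. In untreated A549 ABCC3 led at 158 ± 22.4 CPM per kb (SD, n = 2), followed by ABCC2 at 82.3 ± 0.212, ABCC1 at 38.7 ± 1.27 and ABCC4 at 11.3 ± 0.760. ABCG2 and ABCG1 followed at 6.83 ± 0.0847 and 6.43 ± 0.168, then ABCC5 at 2.25 ± 0.257, ABCB1 at 1.83 ± 0.0713, ABCB6 at 1.03 ± 0.0508 and ABCA1 at 0.400 ± 0.0323. No neighbours in this order overlapped in their libraries. The conjugate exporters thus stood at the top and the cholesterol exporter ABCA1 at the bottom. In untreated SUM159 the highest values were 19.7 ± 0.0329 CPM per kb for ABCC2 and 19.5 ± 0.955 for ABCC1, which overlapped, then 10.5 ± 1.61 for ABCC3. ABCC4 reached 7.33 ± 0.418 and ABCG2 6.23 ± 0.276. ABCC5 at 2.42 ± 0.401 and ABCA1 at 2.39 ± 0.481 overlapped, as did ABCG1 at 0.456 ± 0.0517 and ABCB6 at 0.438 ± 0.0785. ABCB1 was last at 0.00957 CPM per kb, from 1 count in each library.

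**Figure D1:**
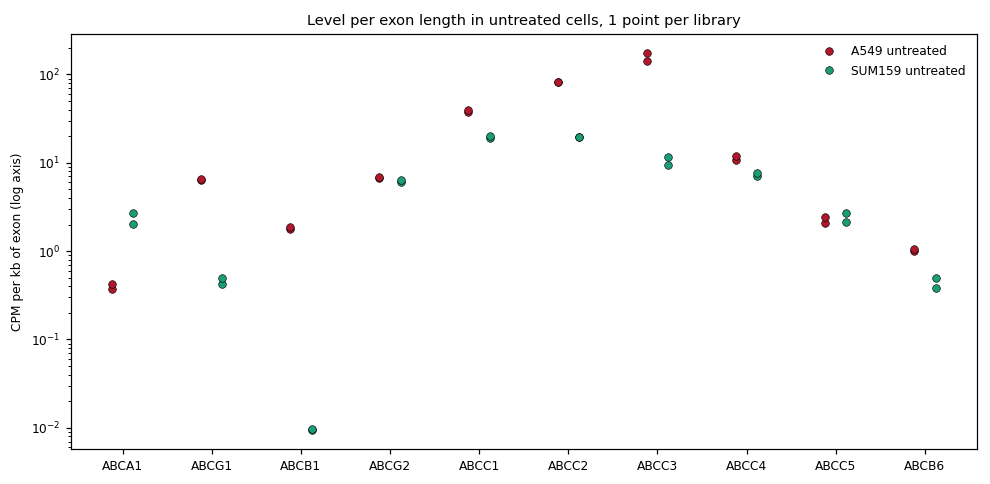
Level of each gene per kb of annotated exon (log axis) in untreated A549 and SUM159 cells, 1 point per library. ABCC3 led in A549 at 158 CPM per kb and ABCB1 stood lowest in SUM159 at 0.00957 CPM per kb.

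Summed over the 10 genes, untreated A549 held 2722 ± 222 CPM (SD, n = 2) and SUM159 585 ± 28.5 CPM. The sum is not scaled by gene length. With both drugs the A549 sum was 1897 ± 21.1 CPM. ABCC3 weighs heavily in it, at 1516 CPM or 55.7% of the untreated sum and 476 CPM or 25.1% with both drugs. By the test given below, 4 of the 10 genes were higher and 4 lower with both, so the sum does not describe each gene.

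**Figure D2:**
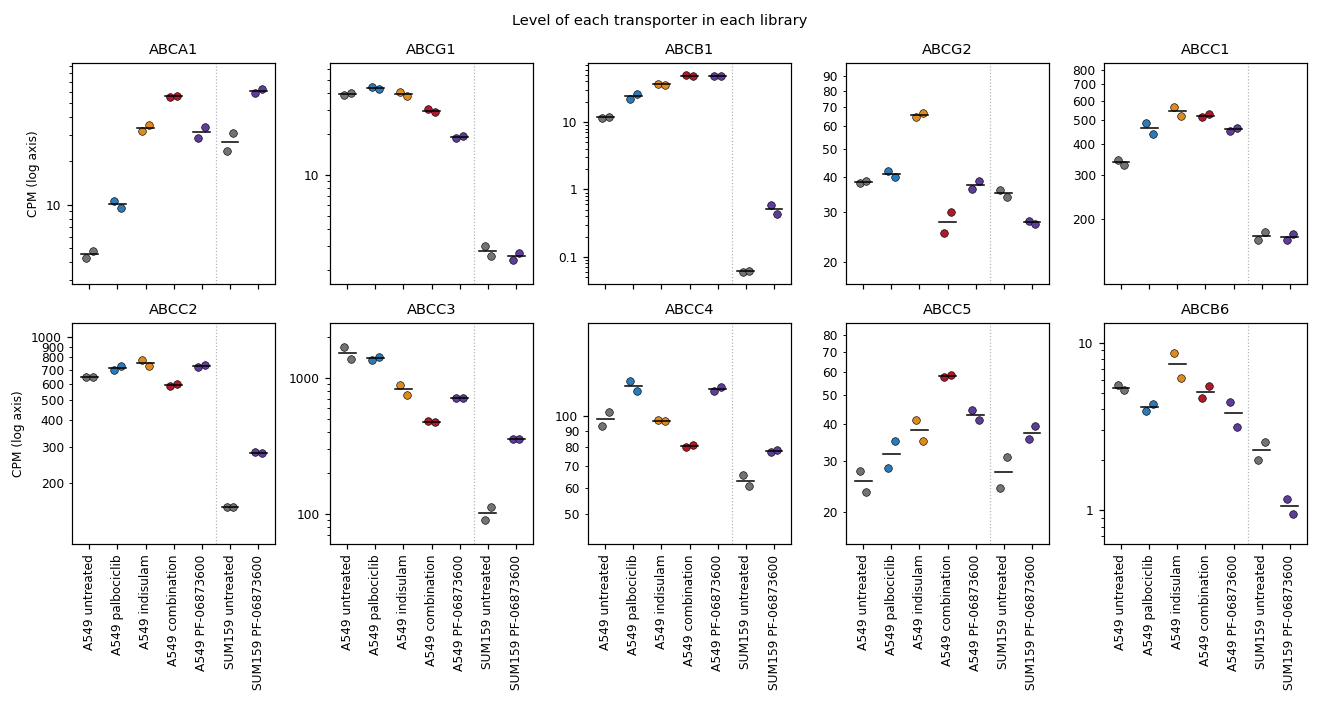
CPM (log axis, scaled per panel) of the 10 genes in each of 14 libraries, with a line at the mean of each group of 2 and a dotted line between A549 and SUM159. ABCA1 runs from 4.28 to 56.3 CPM in A549, and ABCC3 falls there but is higher in SUM159 with PF-06873600.

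ABCA1 had the widest relative range of the 10 genes within A549. It read 4.28 and 4.80 CPM in the untreated libraries, 10.6 and 9.46 CPM with palbociclib, 31.9 and 35.4 CPM with indisulam, and 55.2 and 56.3 CPM with both. Each group lay wholly above the one before. The log2 change from untreated was 1.14 ± 0.15 (SE) with palbociclib, 2.89 ± 0.13 with indisulam and 3.61 ± 0.12 with both, that is 2.198-fold, 7.40-fold and 12.2-fold (adjusted p = 0.000142, 4.11e-10 and 4.04e-12). In these sentences and all that follow, adjusted p comes from edgeR's quasi-likelihood test with Benjamini-Hochberg adjustment over all genes tested, and a call needs a value under 0.05. The 3 comparisons share the untreated libraries. Against the single drugs, the combination was 5.57-fold above palbociclib and 1.65-fold above indisulam (adjusted p = 8.59e-11 and 1.62e-05).

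ABCG1, the other cholesterol exporter, did not follow. It read 38.6 and 40.1 CPM untreated, 44.5 and 42.8 CPM with palbociclib, 41.1 and 37.9 CPM with indisulam, and 30.8 and 28.9 CPM with both. Only the combination stood apart from untreated by the test, at a log2 change of -0.40 ± 0.08 (adjusted p = 0.000434). The 95% interval of the log2 change was -0.01 to 0.31 for palbociclib and -0.16 to 0.17 for indisulam.

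ABCB1 rose in each treated A549 group. Its levels were 11.4 and 12.1 CPM untreated, 21.6 and 26.2 CPM with palbociclib, 36.8 and 35.6 CPM with indisulam, and 49.9 and 47.6 CPM with both, again without overlap between groups. The log2 change was 1.03 ± 0.11, 1.62 ± 0.10 and 2.05 ± 0.10, or 2.04-fold, 3.08-fold and 4.15-fold (adjusted p = 1.41e-05, 1.34e-08 and 1.94e-10). The combination lay 2.03-fold above palbociclib and 1.35-fold above indisulam (adjusted p = 1.95e-07 and 0.000953).

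ABCG2 took another course. It read 37.9 and 38.6 CPM untreated, 41.7 and 40.0 CPM with palbociclib, 64.7 and 66.6 CPM with indisulam and 25.3 and 29.99 CPM with both. Thus indisulam alone gave the highest level and the combination the lowest in A549. The log2 change from untreated was 0.78 ± 0.08 with indisulam and -0.47 ± 0.09 with both (adjusted p = 2.64e-06 and 0.000279), and the combination was lower than indisulam by a factor of 2.37 (adjusted p = 2.45e-08).

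Of the ABCC genes, ABCC3 changed most in A549. Its libraries held 1668 and 1364 CPM untreated, 1350 and 1426 CPM with palbociclib, 890 and 748 CPM with indisulam and 477 and 475 CPM with both. Palbociclib overlapped untreated, and the other groups lay below. The log2 change was -0.89 ± 0.09 with indisulam and -1.67 ± 0.09 with both (adjusted p = 1.78e-06 and 7.15e-10), and -0.13 ± 0.09 with palbociclib (adjusted p = 0.378). The untreated libraries differed, and without replicate 2 of them the palbociclib change was -0.27 with an adjusted p of 0.0126.

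ABCC1 was higher in each treated group, at 346 and 330 CPM untreated, 487 and 441 CPM with palbociclib, 568 and 519 CPM with indisulam and 515 and 529 CPM with both. The folds over untreated were 1.37, 1.61 and 1.54 (adjusted p = 0.000228, 8.96e-07 and 7.28e-07). Combination and indisulam libraries overlapped. The step from palbociclib to the combination, a log2 change of 0.17 ± 0.06 (adjusted p = 0.0302), was lost with TMM normalization, with DESeq2 and without either combination library or palbociclib replicate 2. ABCC2, the MRP of the apical membrane, moved little. It held 646 and 644 CPM untreated, 695 and 725 CPM with palbociclib, 776 and 732 CPM with indisulam and 586 and 599 CPM with both. The rise with indisulam, 1.17-fold, was called (adjusted p = 0.00314). The value with both, a log2 change of -0.12 ± 0.05, missed the threshold (adjusted p = 0.0575) and passed it with TMM normalization (adjusted p = 0.00379) and with DESeq2 (adjusted p = 0.0158).

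ABCC4 was higher with palbociclib and lower with both drugs. Its CPM were 93.3 and 103 untreated, 128 and 119 with palbociclib, 96.8 and 96.4 with indisulam and 80.1 and 81.4 with both. The log2 changes of 0.34 ± 0.06 with palbociclib and -0.28 ± 0.06 with both were called (adjusted p = 0.00223 and 0.00167), the former not when only the palbociclib and untreated groups were fitted (adjusted p = 0.0555). ABCC5 read 27.6 and 23.5 CPM untreated, 28.3 and 35.0 CPM with palbociclib, 41.3 and 35.1 CPM with indisulam and 57.7 and 58.6 CPM with both. It rose 1.49-fold with indisulam and 2.28-fold with both (adjusted p = 0.000827 and 2.57e-07). The palbociclib change of 0.32 ± 0.12 was not called (adjusted p = 0.0792), but was without a filter on low counts (adjusted p = 0.0204). With a library left out this change ranged from 0.15 to 0.46.

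ABCB6 was low, with 5.57 and 5.20 CPM untreated, 3.93 and 4.33 CPM with palbociclib, 8.71 and 6.15 CPM with indisulam and 4.68 and 5.54 CPM with both. No treated group differed from untreated by the test, but the indisulam difference was called higher without a filter on low counts (adjusted p = 0.0463) or without indisulam replicate 2 (log2 change 0.69, adjusted p = 0.02). The combination was lower than indisulam (log2 change -0.53 ± 0.20, adjusted p = 0.0394), a call lost without indisulam replicate 1 (adjusted p = 0.389), without either combination library and with DESeq2.

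**Figure D3:**
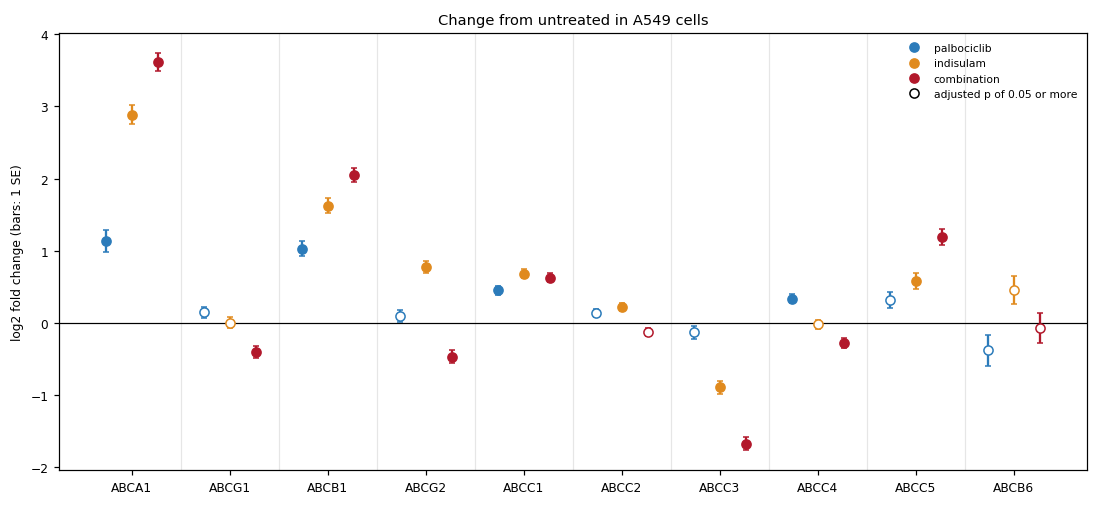
Log2 fold change from untreated A549 cells for each gene with palbociclib, indisulam and both, with bars of 1 SE. Filled points have an adjusted p under 0.05. ABCA1 and ABCB1 rise with each treatment to 3.61 and 2.05 with both, and ABCC3 falls to -1.67.

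By count, 4 of the 10 genes were higher and 0 lower with palbociclib, where 15.7% of the 15780 genes tested were called (8.30% higher, 7.40% lower). The count of 0 lower was the same with DESeq2 and at an unadjusted p under 0.05. Indisulam raised 6 and lowered 1, where 45.5% of genes were called (28.0% higher, 17.5% lower). With both drugs 4 were higher and 4 lower, where 65.2% of all genes were called (35.1% higher, 30.0% lower), so a majority of all genes changed too. Against palbociclib the combination had 4 higher and 5 lower (60.4% of genes called, 33.5% higher and 26.9% lower), and against indisulam 3 higher and 6 lower (46.0% of genes called, 22.0% higher and 23.9% lower). The median log2 change of the 10 genes was 0.23 with palbociclib, 0.52 with indisulam and -0.10 with both, against -0.01, 0.08 and 0.05 over all genes tested. The direction of calls over all genes with indisulam depended on scaling, with 61.6% of calls higher by total counts and 50.4% by TMM factors, while the 6 higher and 1 lower counts of transporters were the same under both. The majority of all calls also turned from higher to lower under TMM with both drugs (53.9% higher by total counts, 47.6% by TMM) and in the combination against palbociclib (55.4% and 47.3%).

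The interaction term tested the change with both drugs minus the sum of the single drug changes, on the log2 scale. It was below 0 by the test for 7 of the 10 genes and above 0 for 0 (also 0 with DESeq2 and at an unadjusted p under 0.05), where 25.2% of all genes were called (14.5% lower, 10.7% higher). ABCG2 had the lowest value, -1.34 ± 0.12 (adjusted p = 1.3e-06). Single changes of 0.09 and 0.78 add to 0.87 for ABCG2, against a measured -0.47. ABCC3 gave -0.66 ± 0.13, ABCB1 -0.60 ± 0.14, ABCC4 -0.60 ± 0.09, ABCG1 -0.55 ± 0.11, ABCC1 -0.51 ± 0.09 and ABCC2 -0.49 ± 0.08, with adjusted p between 0.000221 and 0.00475. For ABCC3 this is a fall beyond the sum, and for ABCB1 and ABCC1 a rise short of it. ABCA1 was at -0.41 ± 0.18 (adjusted p = 0.11), ABCC5 at 0.29 ± 0.16 (adjusted p = 0.202) and ABCB6 at -0.16 ± 0.29. All 7 calls kept their direction and significance in every alternative fit, leave-one-out included.

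**Figure D4:**
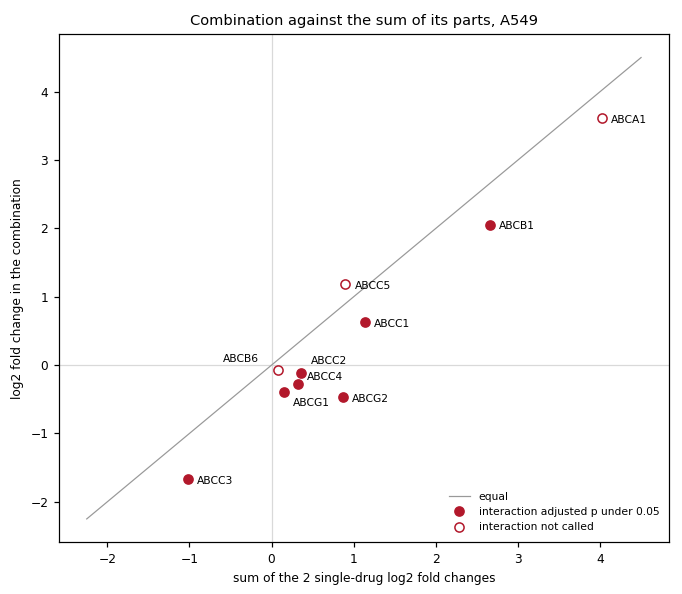
Log2 fold change in A549 cells with both drugs against the sum of the single drug changes, 1 point per gene, with a line of equal values. Filled points differ from the line by the interaction test. ABCG2 lies farthest below it, at 0.87 on the horizontal and -0.47 on the vertical axis.

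PF-06873600 was given for 7 days, so its values are set beside those of the 10 day treatments without a test between them. In A549 ABCA1 read 28.8 and 34.0 CPM with it, 6.92-fold above untreated, and ABCB1 48.6 and 48.1 CPM, 4.11-fold above (adjusted p = 2.5e-10 and 4.47e-10). ABCC3 fell to 713 and 709 CPM and ABCG1 to 18.8 and 19.5 CPM, by factors of 2.13 and 2.06 (adjusted p = 1.1e-07 and 8.71e-08). All of these libraries lay outside the untreated range. Smaller rises were called for ABCC5 (44.6 and 41.3 CPM, 1.68-fold), ABCC1 (453 and 466 CPM, 1.36-fold), ABCC4 (119 and 123 CPM, 1.23-fold) and ABCC2 (721 and 736 CPM, 1.13-fold, adjusted p = 0.011, lost without PF-06873600 replicate 2 at 0.0918). ABCG2 overlapped untreated at 36.1 and 38.7 CPM, with a log2 change between -0.21 and 0.15 (95% interval). ABCB6, at 4.44 and 3.15 CPM, had a log2 change of -0.52 ± 0.22 (adjusted p = 0.0555), which was called without a filter on low counts (adjusted p = 0.0349) or without PF-06873600 replicate 1 (-0.77, adjusted p = 0.0292). In all, 6 were higher and 2 lower, where 56.3% of genes were called (28.5% higher, 27.8% lower).

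In SUM159 the same drug gave a different profile. ABCC3, which fell in A549, read 90.4 and 112 CPM untreated and 357 and 357 CPM treated, a log2 change of 1.82 ± 0.08 or 3.53-fold (adjusted p = 3.41e-11). ABCC2 went from 155 and 154 CPM to 283 and 279 CPM, 1.82-fold (adjusted p = 1.62e-09). ABCA1 went from 23.2 and 30.9 CPM to 58.9 and 62.9 CPM, 2.25-fold (adjusted p = 5.18e-08). These groups did not overlap. ABCC5 rose 1.36-fold, from 24.3 and 30.8 to 35.5 and 39.2 CPM, and ABCC4 1.23-fold, from 65.8 and 60.7 to 77.3 and 78.4 CPM (adjusted p = 0.000881 and 0.00041). ABCG2 fell from 36.0 and 33.8 CPM to 28.0 and 27.2 CPM, and ABCB6 from 1.99 and 2.57 CPM to 1.17 and 0.946 CPM, by factors of 1.27 and 2.16 (adjusted p = 0.000949 and 0.00277). ABCC1 overlapped at 165 and 177 against 165 and 175 CPM. ABCG1 overlapped too, at 3.02 and 2.57 against 2.40 and 2.70 CPM. ABCB1 did not pass the filter on low counts. It had 1 count in each untreated library and 10 and 9 in the treated ones, a ratio of 8.08 with a 95% counting interval of 1.95 to 71.6, with no test between groups in the filtered fit. Without the filter, and in the model of both lines, it was called higher. Of the 9 genes tested, 5 were higher and 2 lower, where 73.7% of 15055 genes were called (38.1% higher, 35.6% lower), so the share called was close to that of all genes.

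A test of the difference between the lines (change in SUM159 minus change in A549, 1 model of all 14 libraries) bears on this directly. ABCC3 differed by 2.91 ± 0.14, in opposite directions (adjusted p = 3.07e-12). The response of ABCA1 was smaller in SUM159, by -1.62 ± 0.19 (adjusted p = 7.8e-07). For ABCC2 and ABCG1 the difference was 0.68 ± 0.07 and 0.91 ± 0.20, and for ABCC1 -0.45 ± 0.09 (adjusted p = 2.58e-07, 0.000582 and 0.000358). ABCG2 at -0.31 ± 0.11 was called (adjusted p = 0.0292) but not with TMM normalization (adjusted p = 0.0868), DESeq2 (adjusted p = 0.177) or without a filter on low counts (adjusted p = 0.0646). It was also lost without PF-06873600 replicate 2 of A549, without untreated replicate 1 of SUM159 and without either treated SUM159 library. The interval of the difference was -0.19 to 0.18 for ABCC4 and -0.65 to 0.05 for ABCC5. The latter difference was called without untreated replicate 1 of A549 (-0.42, adjusted p = 0.043) or of SUM159 (-0.47, adjusted p = 0.0275). Over all 17279 genes 53.0% were called, 25.8% with a positive and 27.2% with a negative difference, against 3 and 3 of the 10 transporters.

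**Figure D5:**
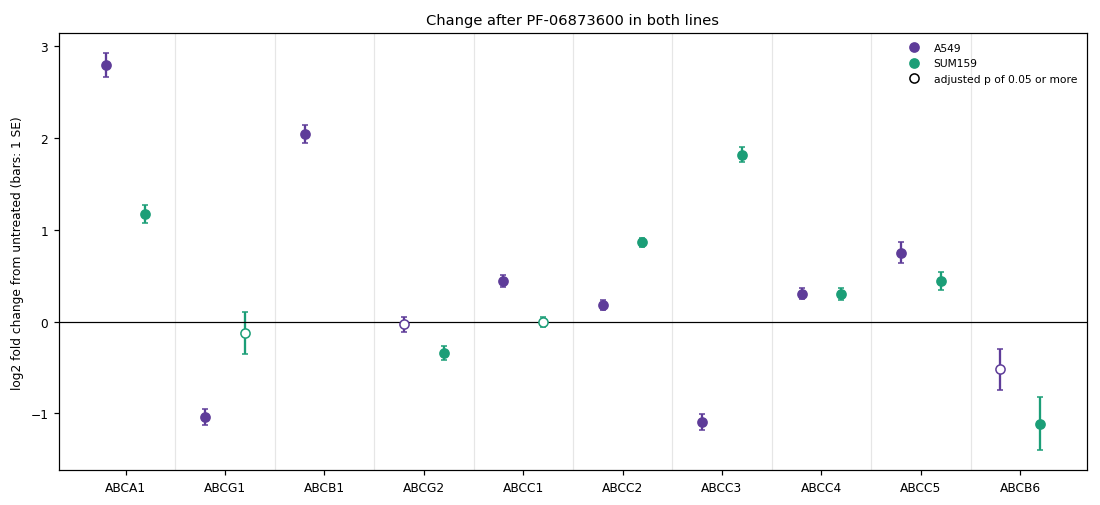
Log2 fold change from untreated after 7 days of PF-06873600 in A549 and SUM159 cells, with bars of 1 SE. Filled points have an adjusted p under 0.05, and ABCB1 has no SUM159 point because it was not tested there. ABCC3 is at -1.09 in A549 and 1.82 in SUM159.

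Before any drug the lines differed in 8 of the 10 genes, where 78.7% of genes were called (41.9% higher in SUM159, 36.8% lower). ABCA1 was 5.94-fold higher in SUM159 (adjusted p = 1.04e-11). ABCC3, ABCG1, ABCC2, ABCB6, ABCC1 and ABCC4 were lower there, by factors of 14.97, 14.04, 4.17, 2.36, 1.98 and 1.55, with adjusted p of 7.96e-05 or less. ABCB1 had 349 counts in the untreated A549 libraries and 2 in the SUM159 ones, a ratio of CPM of 191 with a 95% counting interval of 52.5 to 1585. ABCC5 and ABCG2 were not called, with log2 differences of 0.11 ± 0.12 and -0.13 ± 0.08, but ABCG2 was called with TMM normalization (-0.24, adjusted p = 0.0145).

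The other 38 ABC family genes were counted beside these. In A549 29 passed the filter, of which 3 were higher and 2 lower with palbociclib, 11 and 3 with indisulam, 16 and 6 with both drugs and 16 and 4 with PF-06873600. Of all genes tested 15.7%, 45.5%, 65.2% and 56.3% were called in these 4 comparisons. ABCB4, the phosphatidylcholine floppase and the nearest relative of ABCB1, went the other way from ABCB1 and fell from 4.21 ± 0.180 CPM to 0.847 ± 0.106 CPM with both and to 0.523 ± 0.127 CPM with PF-06873600. ABCC8, the regulatory subunit of a potassium channel, fell from 6.91 ± 1.67 to 3.71 ± 0.0631 CPM with both. ABCA12, a lipid transporter of the skin barrier, rose from 6.06 ± 0.559 to 40.0 ± 2.94 CPM with both and to 44.1 ± 2.79 CPM with PF-06873600. CFTR, the chloride channel of the family, rose from 3.57 ± 0.332 to 23.1 ± 0.924 CPM with indisulam and to 10.6 ± 0.568 CPM with palbociclib, but read 5.46 ± 0.199 CPM with both drugs. Its interaction term was -3.66 ± 0.19 on the log2 scale (adjusted p = 9.06e-09), where 25.2% of all genes were called. In SUM159 22 were higher and 6 lower of 31 with PF-06873600 (73.7% of all genes called), and the lowest changes were those of ABCE1 and ABCF2, which act in translation and carry no substrate across membranes (log2 change -1.11 ± 0.06 and -0.81 ± 0.06).

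LXR receptors and target genes, the group that regulates ABCA1 and ABCG1, were called in both directions in A549. With both drugs 2 were higher and 6 lower of 11 tested, where 65.2% of all genes were called (35.1% higher, 30.0% lower). APOE, the apolipoprotein that takes up cholesterol, rose from 0.507 ± 0.245 to 6.92 ± 0.862 CPM. SREBF1, the regulator of fatty acid synthesis, fell from 226 ± 52.3 to 129 ± 0.641 CPM. With PF-06873600 3 were higher and 6 lower in A549, and in SUM159 6 higher and 2 lower of 12. Of all genes tested with that drug, 56.3% were called in A549 and 73.7% in SUM159. Among 12 genes of cholesterol supply, 7 were higher and 5 lower with both drugs in A549, again beside 65.2% of all genes called. NPC1 and NPC2, which release cholesterol from lysosomes, rose to 81.6 ± 1.43 and 174 ± 11.7 CPM from 23.3 ± 0.796 and 48.1 ± 2.72 CPM. With PF-06873600 in SUM159, INSIG1 had a log2 change of -1.67 and NPC2 of 1.24. There 4 were higher and 4 lower of 12, beside 73.7% of all genes called.

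Lists around drug handling were also counted for both drugs against untreated, where 65.2% of all genes were called. Of 12 NRF2 pathway genes 3 were higher and 8 lower, with NQO1 down from 3467 ± 157 to 1095 ± 35.2 CPM and SLC7A11 from 464 ± 54.0 to 116 ± 1.16 CPM, and HMOX1 up from 15.4 ± 1.45 to 84.6 ± 7.12 CPM. Of 14 conjugation enzymes 4 were higher and 4 lower, among them UGT1A1, a glucuronidating enzyme, at 3.27 ± 0.283 and 10.6 ± 0.608 CPM. Xenobiotic receptors and their targets gave 3 higher and 2 lower of 7. Of 13 uptake carriers 5 were higher and 3 lower. SLCO2A1, a prostaglandin carrier, had 0 counts in both untreated libraries and rose to 1.33 ± 0.425 CPM, and SLCO1B3, an organic anion carrier, fell from 48.6 ± 0.999 to 19.0 ± 0.225 CPM. Of 9 cell cycle genes 8 were lower, and CDKN1A, the cell cycle inhibitor p21, rose from 41.4 ± 3.19 to 675 ± 12.2 CPM.

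Across the 10 A549 libraries, which fall into 5 treatment groups, Pearson's r of log2 CPM between ABCA1 and ABCB1 was 0.953 and between ABCA1 and ABCC3 -0.950, values given as descriptions because the treatments are shared. ABCG2 had r of 0.794 with ABCC2 and -0.077 with ABCA1. The genes most like ABCA1 were FBN2, MAP7D2 and IFFO2 (r = 0.996, 0.996 and 0.995), and 260 of 9620 genes compared had r of at least 0.95 with it. ABCB1 was most like CXCL8, ITIH5 and ELOVL7 (r = 0.994 each), and ABCC3 was most like SELENBP1, GJB1 and CDH16 (r = 0.994, 0.993 and 0.990). Only 5 genes had r of at least 0.95 with ABCG2, led by ATP2B1, USP10 and RIF1 (r = 0.9747, 0.959 and 0.957).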

How the data were processed

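The submitters' processing notes name HISAT2 2.2.1 and HTSeq and the build GRCh38. The annotation release and use of strand in counting are not given in the sources used here. The authors deposited 1 table of raw read counts per library, with 60683 Ensembl gene identifiers and 9 summary lines. Ambiguous reads were 3.55% to 4.21% of gene and ambiguous counts together and stayed out of totals. The tables held 0 columns of other series. Genes were matched to GENCODE release 44 (60370 identifiers).

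Counts were scaled by the total on genes, filtered with filterByExpr and tested with edgeR 4.0.16 in R 4.3.3 (quasi-likelihood F test, Benjamini-Hochberg, 0.05), in models of 10 A549 libraries (15780 genes), 4 SUM159 libraries (15055) and all 14 (17279). SE was taken as |log2 fold change| over √F. With 2 libraries against 2, the smallest two-sided exact permutation p is 0.333. Correlations used log2(CPM + 0.5), over genes with a mean of at least 10 CPM. The counting intervals of the ABCB1 ratios and the floors cover counting error only. Intervals of log2 changes and of line differences rest on the SE of the fit, which also holds the spread between libraries. The tests were checked on simulated counts in which few genes changed and all had the same dispersion. That check cannot tell how scaling by totals does where many genes change.

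The members and lists were chosen with earlier results of these data known. Named list genes are up to 2 highest and 2 lowest among calls of a comparison. Some genes that this rule admits are not reported here. For likeness, the 3 genes with the highest r are named. Replicate numbers come from the labels, which tie them to no shared batch. Alternatives were TMM, DESeq2 1.42.0, other count filters, only the groups compared, the replicate number as a block and each library left out.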

Additional observations from a re-analysis of the deposited data

Results flagged for a closer look

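The response to PF-06873600 differed between SUM159 and A549 cells by the test of the difference itself (change in SUM159 minus change in A549, log2 scale, edgeR adjusted p) in 6 of the 10 genes. The difference was -1.62 for ABCA1, -0.45 for ABCC1, 0.68 for ABCC2, 2.91 for ABCC3, 0.91 for ABCG1 and -0.31 for ABCG2. Over all genes tested 53.0% differed. ABCC3 fell in both treated A549 libraries and rose in both treated SUM159 libraries. ABCG2 was the least stable of these calls. Line, medium and handling cannot be told apart. Groups of 2 libraries were not tested for single outlying libraries.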

How the results depend on the processing

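Of 1068 recomputed changes of single transporters, 1016 kept direction and side of the threshold, 18 lost the call, 14 gained it and 20 reversed, all of them changes without a call. ABCG1 with indisulam was -0.074 with TMM, -0.066 with DESeq2 and between -0.053 and 0.062 with a library left out. The line difference of ABCC4 was 0.054 with TMM, 0.042 with DESeq2 and between -0.075 and 0.062 with a library left out. The other reversals came from leaving out a library, with ranges of -0.27 to 0.026 for ABCC3 with palbociclib, -0.086 to 0.051 for ABCC4 with indisulam, -0.12 to 0.0098 for ABCC1 in the combination against indisulam, -0.39 to 0.11 for the ABCB6 interaction, -0.20 to 0.039 for ABCB6 with both drugs, -0.082 to 0.017 for ABCG2 with PF-06873600 in A549, -0.055 to 0.045 for ABCC1 in SUM159, and -0.071 to 0.27 for ABCC5 between the untreated lines. The 2478 genes called with palbociclib became 1589 with DESeq2, 949 when only the compared groups were fitted and 1301 to 3331 with a library left out. Transporters lower with palbociclib ranged from 0 to 1 with a library left out, and ABCC3 was the 1. In SUM159 the number lower with PF-06873600 was 1 with a mean of at least 50 counts, as ABCB6 was then filtered out.

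Of 70 group levels, 21 moved by more than 1 SD with TMM library sizes and 49 by less. Taking the replicate number as a block gave 2337 genes called for palbociclib, 7073 for indisulam, 10208 for both drugs, 8783 for PF-06873600 in A549 and 11286 in SUM159, and no call of a transporter changed. Deviations of same-numbered libraries correlated between -0.295 (palbociclib and untreated) and 0.263 (indisulam and untreated), so the numbers are not shown to pair the libraries. Crossing the palbociclib numbers, chosen after that correlation was seen, gave 3023 calls, and crossing the untreated SUM159 numbers gave 13575. With 2 libraries per group, small changes of low genes such as ABCB6 are the least secure.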
